A study of Mus musculus with 12 samples.

Results

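The genes described here encode 9 transcription factors that set and hold the gene programme of hepatocytes: Hnf4a, Foxa1, Foxa2, Foxa3, Cebpa, Cebpb, Cebpd, Onecut1 and Prox1. They were chosen with earlier results of these data known. Their rows were taken from the expression table by gene symbol, and all 9 were found among the 22899 genes listed. All 9 also passed the filter on low values (at least 1 FPKM in 3 or more libraries), which left 10764 genes. The study asked whether 7-HC (7-hydroxycoumarin, a plant coumarin) protects mice given colistin (a polymyxin antibiotic) from kidney injury. Libraries were made from 3 mice in each of 4 groups. Mice of the colistin + 7-HC group received daily doses of 15 mg/kg colistin and 50 mg/kg 7-HC, those of the colistin group colistin alone, those of the 7-HC group 7-HC alone, and those of the control group saline. All were Kunming mice, an outbred stock with no engineered allele, recorded as female, 6 to 8 weeks old and 18 to 22 g, and were dosed for 7 days by injection into the abdominal cavity. The methods give 7-HC in DMSO and the other doses in saline, so an effect of 7-HC and one of its vehicle cannot be told apart.

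The libraries are labelled kidney, but their marker genes were those of liver. All 10 genes of a hepatocyte marker list (Alb, Apoa1, Apob and others) were at 1 FPKM or more in every library, with summed levels between 47730 and 98485 FPKM. Alb alone took 2.95% to 13.6% of the summed values of a library. The 7 genes of a kidney proximal tubule list summed to between 0.04 and 0.21 FPKM per library, and Slc5a2 and Kap were blank in all 12. The 7 markers of other nephron segments and podocytes summed to between 0.09 and 0.32 FPKM. Of 9 transcription factors of the kidney and its precursors, Pax2, Foxi1 and Hoxd10 were blank and the rest summed to at most 0.51 FPKM. All 4 Y-linked genes looked at (Ddx3y, Kdm5d, Eif2s3y and Uty) were at 1 FPKM or more in every library. These values go against the record of female mice. The groups are given by their labels throughout. Library sums lay between 517984 and 597354 FPKM, the number of reads is unknown, and log2 values correlated between libraries of 1 group at r = 0.956 to 0.984.

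Hepatocyte identity rests on a small network of DNA-binding proteins that bind the regulatory regions of one another and of shared liver genes. HNF4A is a nuclear receptor at the centre of that network. The 3 FOXA proteins are forkhead pioneer factors that open liver chromatin, and ONECUT1 (HNF6) and PROX1 are homeodomain proteins that act from early liver development onward. The C/EBP proteins are leucine zipper factors that bind the same DNA letters as dimers: C/EBP alpha is known for metabolic genes of the resting hepatocyte, whereas C/EBP beta and C/EBP delta are known for the acute-phase response to interleukin-6 and interleukin-1.

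Cebpa and Foxa1 fell with colistin, and their promoter sequences are shown here with those of Cebpb and Hnf4a, which did not pass the test. The sequences come from the RefSeq promoter set on GRCm38.p6, which held 12 windows for 8 of the 9 genes. Cebpd had no entry. Each is the strand of the gene from 250 bases before an annotated start, cut short where an annotated exon begins. The Foxa1 window lies before a start inside the annotated gene, 240 bases at chr12:57546122-57546361 on the minus strand. The others are on the plus strand: Cebpa, 250 bases at chr7:35119043-35119292, Cebpb, 250 bases at chr2:167688665-167688914, and Hnf4a, 201 bases at chr2:163506607-163506807 before its upstream start. Capitals mark letters found by a search on both strands for a forkhead motif (TGTTTNC), the C/EBP motif TTNNGCAA, the HNF6 motif ATTGAT, the core of the cAMP response element (TGACG) and a TATA box (TATAAA).
Foxa1: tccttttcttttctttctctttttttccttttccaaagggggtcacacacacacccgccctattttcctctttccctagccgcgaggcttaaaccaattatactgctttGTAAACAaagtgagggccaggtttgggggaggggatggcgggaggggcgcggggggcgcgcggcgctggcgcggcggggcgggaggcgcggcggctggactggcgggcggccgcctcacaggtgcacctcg
Cebpa: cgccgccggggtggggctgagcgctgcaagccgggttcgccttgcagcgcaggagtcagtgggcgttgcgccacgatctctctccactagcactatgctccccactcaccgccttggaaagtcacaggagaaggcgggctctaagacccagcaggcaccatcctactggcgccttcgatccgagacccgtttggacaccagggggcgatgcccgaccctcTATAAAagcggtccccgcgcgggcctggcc
Cebpb: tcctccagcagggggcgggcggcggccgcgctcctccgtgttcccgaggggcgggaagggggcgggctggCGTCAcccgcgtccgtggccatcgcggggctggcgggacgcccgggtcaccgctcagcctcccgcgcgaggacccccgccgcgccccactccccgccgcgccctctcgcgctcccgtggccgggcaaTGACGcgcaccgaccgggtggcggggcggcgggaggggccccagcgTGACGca
Hnf4a: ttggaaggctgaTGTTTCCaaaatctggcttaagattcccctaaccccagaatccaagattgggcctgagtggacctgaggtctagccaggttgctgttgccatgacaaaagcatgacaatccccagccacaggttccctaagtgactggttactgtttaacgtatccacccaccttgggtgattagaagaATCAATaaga
The Foxa1 window held 1 forkhead match, read on the opposite strand, whose first letter is 141 bases before the start. In the Cebpa window the search marked 1 TATA box, 30 bases before the start. The Cebpb window held 3 TGACG matches, beginning 180, 53 and 7 bases before the start, the first of them read on the opposite strand. The Hnf4a window held 1 forkhead match and 1 HNF6 match, 238 and 59 bases before the start, the HNF6 match read on the opposite strand. No C/EBP match lay in any of the 12 windows. Of 32851 mouse windows of the same length, 17.8% held the forkhead motif, 9.56% the C/EBP motif, 6.72% the HNF6 motif, 17.8% TGACG and 12.4% the TATA box. A match is a description of the letters and not of binding. With 1 value per gene, which annotated start of a gene was in use in these libraries was not tested.

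In control mice Hnf4a and Cebpa were the most abundant of the 9, at 182 ± 8.59 and 166 ± 32.9 FPKM (SD, n = 3 each), and their libraries overlapped. Cebpb followed at 78.2 ± 9.18 FPKM, below every Cebpa library. Foxa3 (21.7 ± 3.86), Prox1 (15.2 ± 4.69) and Foxa2 (10.5 ± 2.95 FPKM) were in the middle. Onecut1 (6.88 ± 4.51), Foxa1 (6.47 ± 2.62) and Cebpd (4.77 ± 0.478 FPKM) were lowest. From Foxa3 down, each gene overlapped the next in at least 1 control library. The values were taken as FPKM, a level per transcript length, and only on that reading may these levels be set beside each other. The first 3 places were the same in all 4 groups, while the lowest place was held by Onecut1 in the colistin + 7-HC group, Foxa1 in the colistin group, and Cebpd in the 7-HC and control groups. The plots of FPKM by group show all 12 libraries of each gene.

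**Figure D1:**
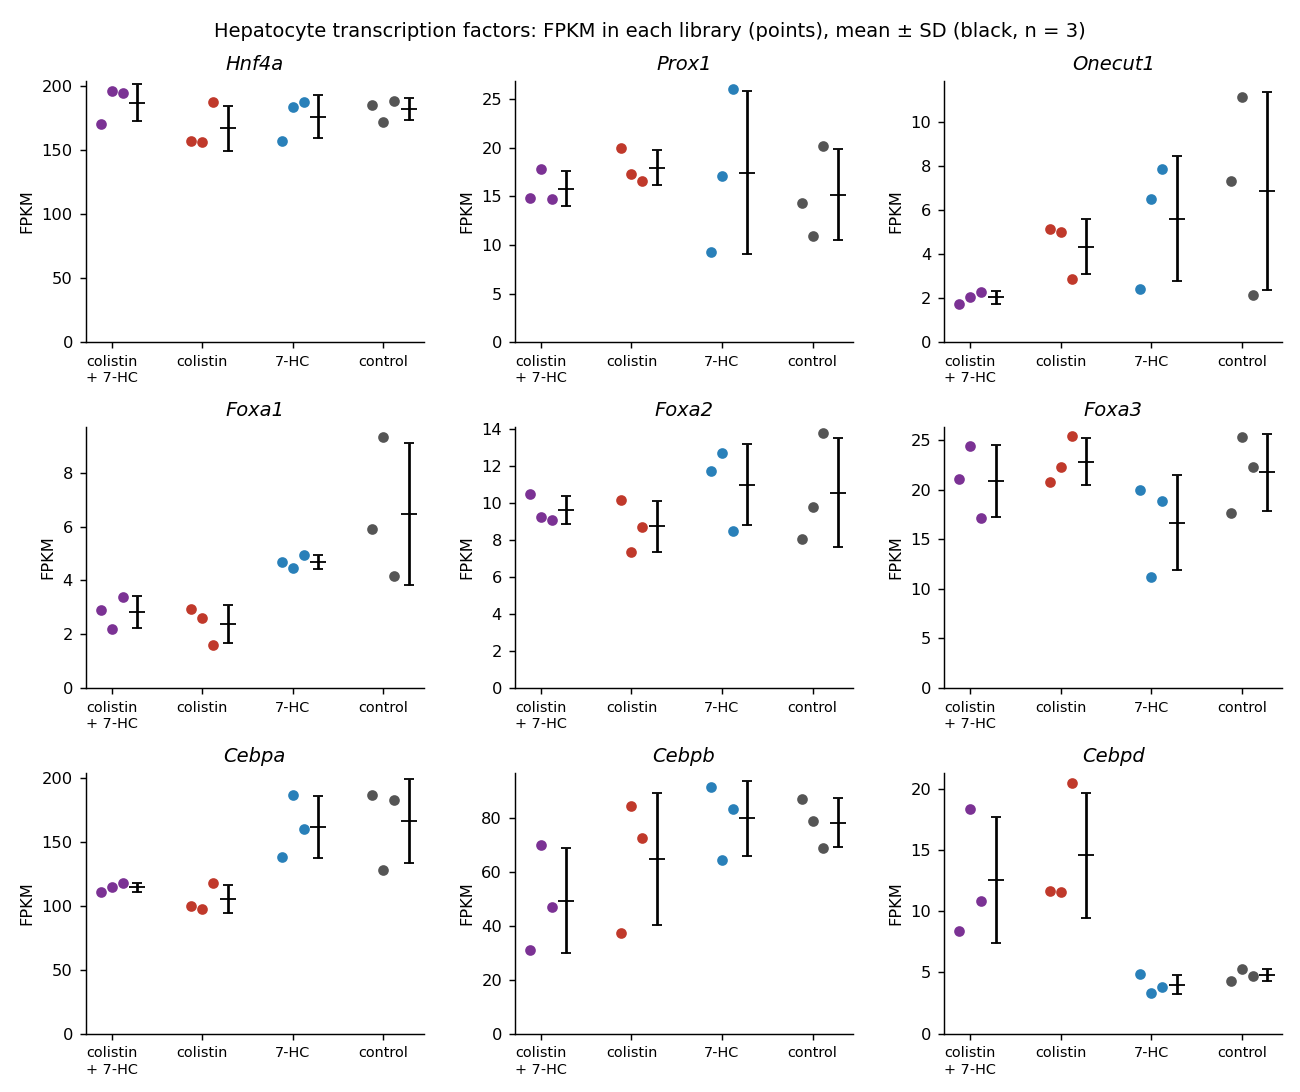
FPKM of the 9 transcription factors (vertical axes, each from 0) in the colistin + 7-HC, colistin, 7-HC and control groups. Points are libraries and black bars the mean ± SD (n = 3). Cebpd libraries sit between 8.42 and 20.45 FPKM in the 2 groups given colistin and between 3.36 and 5.28 FPKM in the other 2, while Hnf4a libraries lie between 157 and 196 FPKM across all groups.

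For colistin against control, 3 of the 9 factors passed the test: Cebpd rose, and Foxa1 and Cebpa fell. Of all 10764 genes tested, 32.7% passed in this comparison (12.7% higher and 19.9% lower), so the share of factors that passed was near that of all genes. The same 3 factors had groups that did not overlap, as did 46.9% of all genes. The median log2 fold change of the 9 was -0.24, against -0.07 over all genes tested. The test was limma on log2(FPKM + 0.5) with all 12 libraries in 1 fit, adjusted over all genes tested, and rose or fell is written of genes whose adjusted p was under 0.05. Fold changes are on that log2 scale, on which those of low genes are smaller than the ratio of their means.

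Cebpd, whose protein takes part in the acute-phase response, had 11.65, 11.58 and 20.45 FPKM in colistin mice, against 4.33, 5.28 and 4.71 FPKM in control mice. Every colistin library was above every control library, and colistin replicate 3 was the highest of all 12. The means were 14.6 ± 5.10 FPKM in colistin mice and 4.77 ± 0.478 FPKM in control mice, a ratio of 3.05, and the log2 fold change was 1.47 (SE 0.27, adjusted p = 0.00204). Cebpd lies at chr16:15887286-15889545 on GRCm38.p6. The gene on the opposite strand, Spidr, which encodes a scaffold protein of DNA repair, overlaps it by 322 bases, and Spidr rose as well, by 1.35 on the log2 scale (SE 0.18, adjusted p = 0.000274). Spidr had 3, 2.21 and 2.72 FPKM in colistin mice, against 0.63, 0.67 and 0.90 FPKM in control mice. The strand setting of the libraries is not given in the sources used here, so reads of the overlap could count for either gene, and the part of this overlap in the values was not tested. Markers of neutrophils, a cell type in which Cebpd is also expressed, moved in the same direction: the 7 genes of the list summed to 28.8 to 50.4 FPKM in colistin mice and 7.23 to 9.27 FPKM in control mice. In that list S100a8, S100a9 and Retnlg rose (log2 fold changes 4.10, 3.74 and 2.68), Ly6g and Cxcr2 did not pass the test (-0.22 and 0.15), and the granule genes Mpo and Elane were at most 0.11 and 0.42 FPKM and at 0 in 7 and 4 of the 12 libraries. Markers of Kupffer cells and other macrophages, which also use C/EBP factors, summed to 80.0 to 198 FPKM in colistin mice and 104 to 159 FPKM in control mice, with Marco higher (3.10) and Clec4f lower (-1.73). The part of these cells in the rise of Cebpd was not tested.

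Foxa1, a forkhead pioneer factor, had 2.95, 2.59 and 1.60 FPKM in colistin mice, against 5.92, 9.32 and 4.16 FPKM in control mice. All colistin libraries were below all control libraries, and control replicate 2 was far above the other controls. The log2 fold change was -1.24 (SE 0.26, adjusted p = 0.00374), and it was -0.96 without that library, with adjusted p-values of at most 0.0166 over all libraries left out in turn. Ttc6, which overlaps Foxa1 by 1326 bases on the opposite strand, was at most 0.28 FPKM in any library. Bile duct cells also express forkhead factors. Their 6 markers summed to 21.5 to 51.4 FPKM in colistin mice and 18.4 to 31.9 FPKM in control mice. Of these, Sox9 was higher (2.14), while Spp1 (0.33) and Krt19 (-0.76) did not pass the test. Krt7, Epcam and Cftr were at most 0.75 FPKM in any library. The part of bile duct cells in the values of Foxa1 was not tested. The other forkhead genes did not pass the test. Foxa2 had 10.15, 7.37 and 8.68 FPKM in colistin mice, against 8.06, 9.78 and 13.80 FPKM in control mice, with a 95% interval of the log2 fold change from -0.67 to 0.20. Foxa3 had 20.8, 22.3 and 25.4 FPKM in colistin mice, against 17.6, 25.3 and 22.3 FPKM in control mice, with an interval from -0.40 to 0.56. Both pairs of groups overlapped.

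Cebpa, a factor known for gluconeogenic and other metabolic genes, had 99.9, 97.6 and 118 FPKM in colistin mice, against 187, 128 and 183 FPKM in control mice. The highest colistin library lay below the lowest control library. The log2 fold change was -0.64 (SE 0.16, adjusted p = 0.0120), and without control replicate 1 the adjusted p was 0.0545. In bulk tissue, fewer hepatocytes and less of an RNA per hepatocyte cannot be told apart. The hepatocyte marker list summed to 47730 to 49628 FPKM in colistin mice and 83120 to 93785 FPKM in control mice, with 7 of its 10 genes lower and 1 higher. Alb was the largest part of that sum, at 20812 ± 3781 FPKM in colistin mice and 50716 ± 6719 FPKM in control mice. Fgb was the gene that rose (2.07), and Apob (0.15) and Tat (-0.60) did not pass the test. The part of hepatocyte number in this sum was not tested. Hnf4a, in the same libraries, had 158, 157 and 188 FPKM in colistin mice, against 185, 172 and 188 FPKM in control mice, a log2 fold change of -0.13 with an interval from -0.40 to 0.14 (adjusted p = 0.466).

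Cebpb, the other acute-phase C/EBP factor, did not pass. It had 37.46, 84.50 and 72.55 FPKM in colistin mice, against 86.93, 78.95 and 68.62 FPKM in control mice. Colistin replicate 1 was low and the other 2 lay within the range of the controls. The log2 fold change was -0.34 with an interval from -1.04 to 0.36 (adjusted p = 0.443), and 0.01 without colistin replicate 1. The direction of Cebpb thus rested on 1 library. Onecut1 varied most of the 9 among mice of 1 group (pooled SD 0.72 on the log2 scale, against 0.12 for Hnf4a). It had 5.16, 4.99 and 2.89 FPKM in colistin mice, against 7.34, 11.14 and 2.15 FPKM in control mice, and the interval ran from -1.49 to 0.70. Prox1 had 19.96, 17.28 and 16.55 FPKM in colistin mice, against 14.34, 10.93 and 20.21 FPKM in control mice, with an interval from -0.40 to 0.95. Both groups of both genes overlapped. Prox1 is also a factor of lymphatic endothelium, whose marker list summed to 13.8 to 18.4 FPKM in colistin mice and 10.2 to 21.2 FPKM in control mice. Markers of sinusoidal endothelium summed to 62.2 to 84.2 FPKM in colistin mice and 52.8 to 72.5 FPKM in control mice, and those of stellate cells to 83.8 to 115 FPKM in colistin mice and 97.4 to 122 FPKM in control mice. The part of these cells in the values of the 9 factors was not tested.

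**Figure D2:**
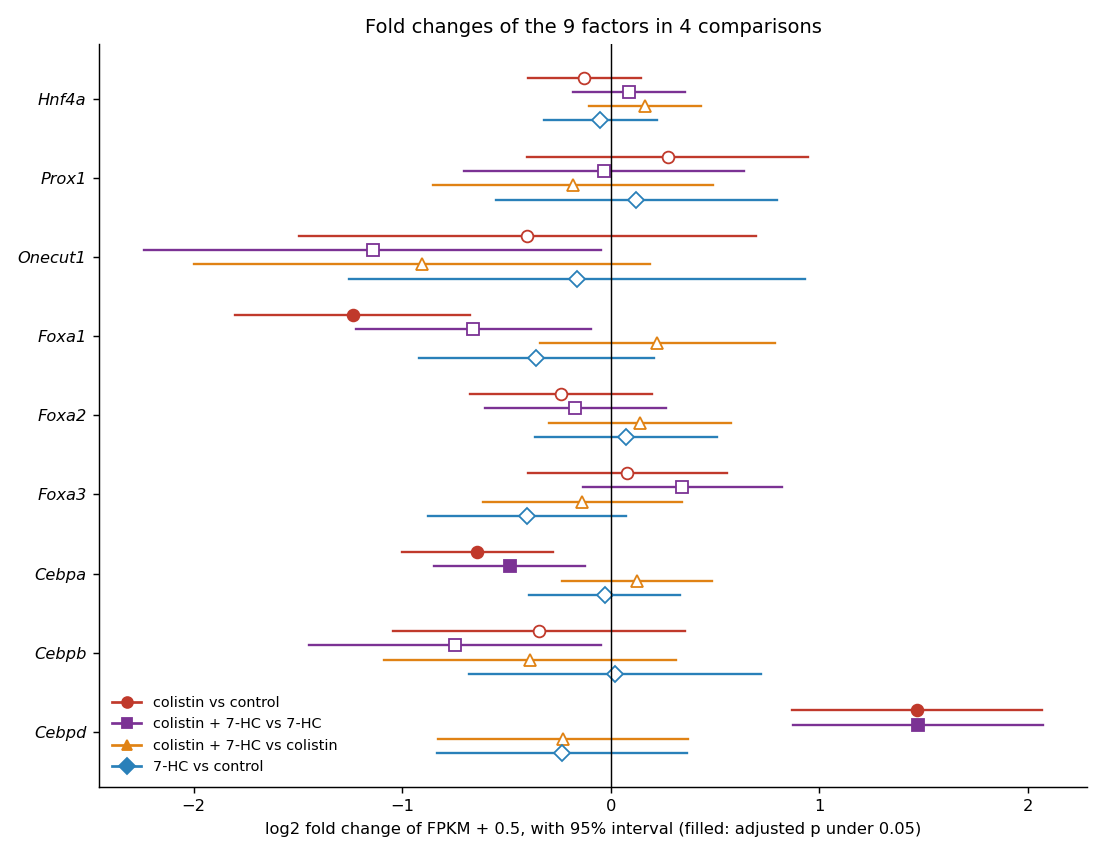
Log2 fold change of FPKM + 0.5 (horizontal axis) of the 9 factors in 4 comparisons, with 95% intervals from limma; filled symbols have an adjusted p under 0.05. Cebpd lies at 1.47 in both comparisons of mice with and without colistin and Cebpa at -0.64 and -0.48, while every interval of colistin + 7-HC against colistin and of 7-HC against control includes 0.

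Colistin + 7-HC against colistin, the comparison that asks what 7-HC changed in mice given colistin, gave no factor past the test. At an unadjusted p under 0.05 limma gave 0 of the 9, against 12.4% of all genes, and 0.00929% of all genes, which is 1 gene, passed after adjustment. The log2 fold changes lay between -0.90 and 0.22. Onecut1 was the only factor whose groups did not overlap, as was the case for 16.9% of all genes: it had 1.74, 2.06 and 2.30 FPKM in colistin + 7-HC mice, against 5.16, 4.99 and 2.89 FPKM in colistin mice. Its log2 fold change was -0.90 (interval -2.00 to 0.19, adjusted p = 0.487). Cebpd had 8.42, 18.32 and 10.86 FPKM in colistin + 7-HC mice, against 11.65, 11.58 and 20.45 FPKM in colistin mice. Each of these Cebpd groups held 1 library well above its other 2, and they overlapped (log2 fold change -0.23, interval -0.83 to 0.37). Foxa1 had 2.91, 2.2 and 3.37 FPKM in colistin + 7-HC mice and overlapped the colistin group (0.22, interval -0.34 to 0.79). Cebpa had 111, 114 and 118 FPKM in colistin + 7-HC mice, a narrow range that lay within that of colistin mice (0.13, interval -0.24 to 0.49). Hnf4a had 171, 196 and 195 FPKM in colistin + 7-HC mice (0.16, interval -0.11 to 0.43). The intervals of the 9 factors were between 0.54 and 2.19 wide, and those of Cebpb, Cebpd, Onecut1 and Prox1 include a fall of the size found for Cebpa with colistin.

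7-HC against control likewise gave 0 of the 9 factors, also at an unadjusted p under 0.05, with 0.167% of all genes called after adjustment and 9.59% before it. The log2 fold changes lay between -0.40 (Foxa3) and 0.12 (Prox1), and the groups of all 9 factors overlapped, as did those of most genes (15.9% did not). Cebpd had 4.89, 3.36 and 3.8 FPKM in 7-HC mice, against 4.33, 5.28 and 4.71 FPKM in control mice. Foxa1 had 4.69, 4.44 and 4.96 FPKM in 7-HC mice, all within the wide range of the controls. Cebpa had 138, 187 and 160.3 FPKM in 7-HC mice, again within the range of the controls. Prox1 spread widely in 7-HC mice, at 9.26, 17.04 and 26 FPKM. The interaction, which is the fold change of colistin + 7-HC over 7-HC minus that of colistin over control, passed for 0 of the 9 factors, also unadjusted, while 0.297% of all genes passed after adjustment and 11.5% before it. For Cebpd the interaction was 0.00 (interval -0.84 to 0.85) and for Foxa1 0.58 (interval -0.22 to 1.38).

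With 7-HC in both groups, colistin + 7-HC against 7-HC, 2 of the 9 factors passed, and 31.1% of all genes did (14.5% higher and 16.6% lower). Cebpd rose to 12.5 ± 5.16 FPKM in colistin + 7-HC mice, against 4.02 ± 0.788 FPKM in 7-HC mice (log2 fold change 1.47, SE 0.27, adjusted p = 0.00228), and the groups did not overlap. Cebpa fell to 114 ± 3.54 FPKM in colistin + 7-HC mice, against 162 ± 24.5 FPKM in 7-HC mice (-0.48, SE 0.16, adjusted p = 0.0438). Foxa1 and Onecut1 also had groups that did not overlap, making 4 of 9 against 46.5% of all genes, but missed the test. Foxa1 averaged 2.83 ± 0.589 FPKM in colistin + 7-HC mice and 4.70 ± 0.260 FPKM in 7-HC mice (-0.66, adjusted p = 0.0725). Onecut1 averaged 2.03 ± 0.281 FPKM in colistin + 7-HC mice and 5.61 ± 2.84 FPKM in 7-HC mice (-1.14, adjusted p = 0.105). The call of Cebpa was the least firm, since it was lost without a filter on low values, with scaling by median ratios and with 5 of the 6 libraries left out in turn, with an adjusted p up to 0.149.

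Colistin + 7-HC against control, which shares its libraries with the comparisons above, gave the same 3 factors as colistin against control, with 26.1% of all genes called (10.6% higher and 15.6% lower) and 48.3% without overlap. The log2 fold changes were 1.24 for Cebpd (adjusted p = 0.00718), -1.01 for Foxa1 (adjusted p = 0.0142) and -0.51 for Cebpa (adjusted p = 0.0401). These 3 were also the factors whose groups did not overlap. Onecut1 (-1.3, adjusted p = 0.0765) and Cebpb (-0.73, adjusted p = 0.117) had an unadjusted p under 0.05 only, as 5 of the 9 and 38.4% of all genes did in this comparison, and their groups overlapped. Without colistin + 7-HC replicate 2 only Cebpd passed, with Foxa1 at an adjusted p of 0.0613 and Cebpa at 0.0992, and Foxa1 also missed the test without control replicate 2, at 0.0501. The call of Cebpa was again not firm: it was lost without a filter on low values (adjusted p = 0.056), with scaling by median ratios (0.0798) and with 5 of the 6 libraries left out in turn (control replicate 1, 0.144, control replicate 3, 0.126, and colistin + 7-HC replicates 1, 0.104, 2, 0.0992, and 3, 0.0765). The study set its thresholds, a fold change of 2 or more with an adjusted p of 0.001 or less, for DESeq2, a test on read counts. With these thresholds applied here to the limma results, 0 of the 9 factors passed in any comparison. Of all genes, 5.88% passed them for colistin against control, 3.47% for colistin + 7-HC against control and 4.59% for colistin + 7-HC against 7-HC. For colistin + 7-HC against colistin, 7-HC against control and the interaction, 0 of all 10764 genes passed them. DESeq2 itself was not run here.

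Within the C/EBP family, Cebpd took a higher share in both groups given colistin. Cebpd made up 6.94% ± 1.85 of the summed FPKM of Cebpa, Cebpb and Cebpd in colistin + 7-HC mice and 7.83% ± 1.85 in colistin mice, against 1.65% ± 0.397 in 7-HC mice and 1.96% ± 0.477 in control mice (SD, n = 3 each). The sum itself averaged 176 FPKM in colistin + 7-HC mice, 185 in colistin mice, 245 in 7-HC mice and 249 in control mice. These shares restate the values above and carry no test. Cebpb and Cebpa, the 2 larger members, kept no set ratio within a group: the log2 ratio of Cebpb to Cebpa averaged -1.28 in colistin + 7-HC mice, -0.77 in colistin mice, -1.02 in 7-HC mice and -1.07 in control mice. All groups overlapped in this ratio, and an exact two-sided permutation test of 3 against 3 libraries, whose smallest p is 0.1, gave p between 0.4 and 0.9 in 5 comparisons (0.75 to 0.9 adjusted over the 5). Foxa1 made up 8.66% ± 2.63 of the summed Foxa values in colistin + 7-HC mice and 7.08% ± 2.27 in colistin mice, against 14.6% ± 1.53 in 7-HC mice and 16.7% ± 5.62 in control mice, and Foxa3 was the largest member in every library but 7-HC replicate 2.

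**Figure D3:**
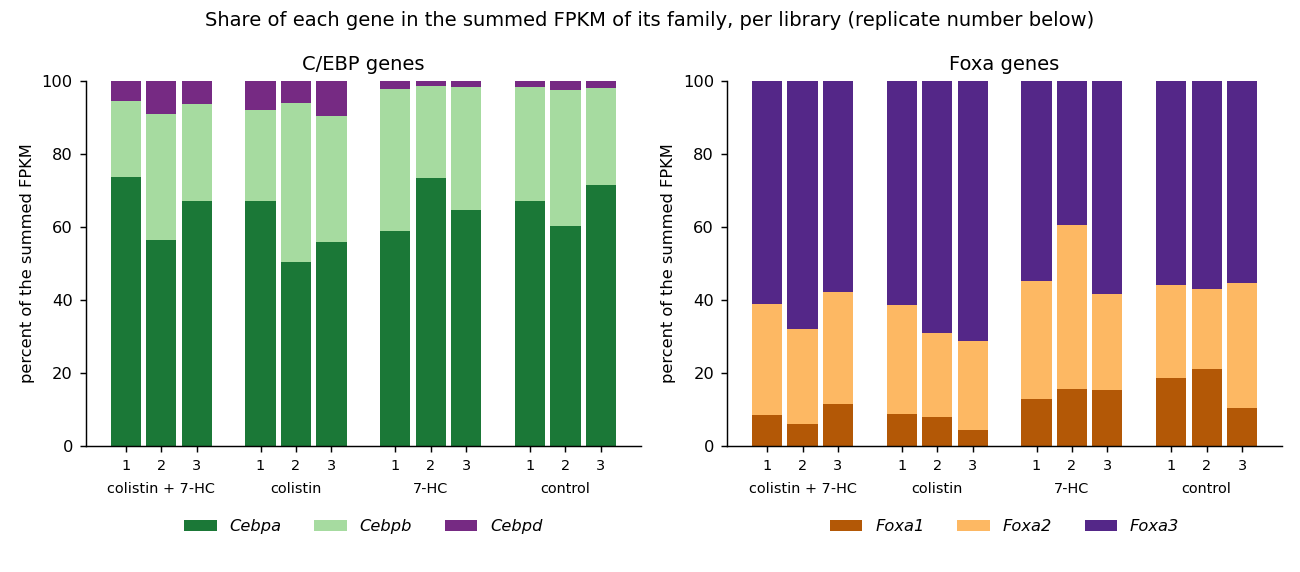
Share of each gene in the summed FPKM of the C/EBP genes (left) and the Foxa genes (right), in percent, for each library of the 4 groups. Cebpd takes 5.60% to 9.69% of its family in libraries of mice given colistin and 1.32% to 2.49% in the others.

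Other factors of the hepatocyte network were read from a list of 22 genes. With colistin, 5 rose and 6 fell, where 12.7% of all genes tested rose and 19.9% fell, and their median log2 fold change was 0.02. Nr0b2, which encodes the bile acid induced corepressor SHP, had the greatest fall, to 5.45 ± 0.560 FPKM in colistin mice, against 47.2 ± 21.6 FPKM in control mice (-2.88). Klf15, a glucocorticoid-responsive factor of amino acid metabolism, fell by 1.62 and Nr2f2, a nuclear receptor also of veins and mesenchyme, by 1.14. Atf5 (1.26), known from the mitochondrial stress response, and Xbp1 (1.0), a factor of the secretory pathway, rose. For colistin + 7-HC against colistin 0 of the 22 passed in limma, and 3 had an unadjusted p under 0.05, a share near the 12.4% of all genes. Of the dimer partners and regulators of C/EBP proteins, 5 of 8 were tested, and Atf4 (0.86) and Cebpg (0.49) rose with colistin, while Ddit3 did not pass (0.78, adjusted p = 0.0674).

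The receptors and signal carriers upstream of Cebpb and Cebpd moved both ways. Of 12 genes of the interleukin-6, interleukin-1 and glucocorticoid pathways, 4 rose and 3 fell with colistin, where 32.7% of all genes passed in either direction. Socs3, the feedback inhibitor that STAT3 induces, rose to 36.6 ± 25.0 FPKM in colistin mice, against 4.46 ± 0.601 FPKM in control mice (2.51), Stat3 itself rose by 1.22 and Il6st, the signalling chain of the interleukin-6 receptor, by 0.84. Il1rap, the accessory chain of the interleukin-1 receptor, fell by 0.97 and Il6ra, the interleukin-6 binding chain, by 0.81. For colistin + 7-HC against 7-HC, 5 of the 12 rose and 1 fell, where 31.1% of all genes passed.

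Genes known as targets of the 9 factors were counted in lists that share members (G6pc and Pck1 stand in 4 of them), and the lists were drawn up with results of these data already known, so they are no independent evidence. Of all genes tested, 12.7% rose and 19.9% fell with colistin. All 10 acute-phase targets of C/EBP beta and delta rose with colistin, with a median log2 fold change of 4.82, against -0.07 over all genes. Saa3, a serum amyloid gene, had 4396 ± 936 FPKM in colistin mice and 9.98 ± 5.17 FPKM in control mice (8.80), and Orm2, an acid glycoprotein gene, had 3638 ± 425 FPKM in colistin mice and 74.1 ± 53.4 FPKM in control mice (5.84). The Saa and Orm genes have near copies in the genome, as Ugt1a1 has in shared exons, and how reads were split among them was not tested. Of 10 C/EBP alpha targets 7 fell and none rose (median -1.90). In that list Ugt1a1, which conjugates bilirubin (-2.37), Cps1, the entry enzyme of the urea cycle (-2.03), and Adh1, an alcohol dehydrogenase (-2.02), fell. Of 18 HNF4A targets 11 fell and 2 rose (median -1.01), although Hnf4a itself did not pass. In it Slc2a2, the glucose transporter GLUT2, fell to 17.3 ± 10.6 FPKM in colistin mice, against 135 ± 23.1 FPKM in control mice (-3.08), and F11, a clotting factor gene, was among the 2 that rose. Of 11 tested FOXA targets 6 fell and 1 rose (median -1.02). The gene that rose was Igfbp1, a secreted binder of insulin-like growth factors (1.56). Of 6 HNF6 targets 5 fell (median -2.36), among them Cyp7a1, the rate-limiting enzyme of bile acid synthesis (-3.44). Only Cd24a of 6 fetal liver genes was tested, and it did not pass (-0.20).

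**Figure D4:**
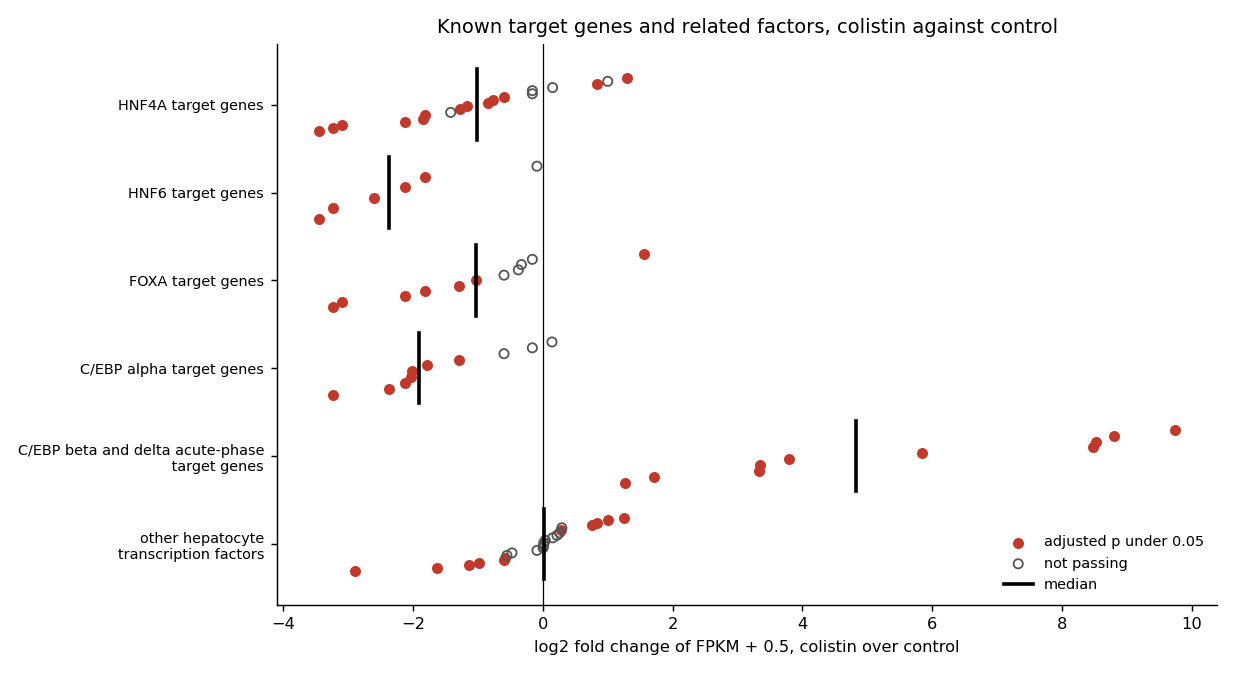
Log2 fold change of FPKM + 0.5, colistin over control (horizontal axis), of the tested genes of 6 lists (rows; height within a row only separates points). Filled points have an adjusted p under 0.05 and black bars are medians. All 10 acute-phase genes lie to the right of 0 with a median of 4.82, and the medians of the HNF4A, HNF6, FOXA and C/EBP alpha targets lie between -2.36 and -1.01.

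The same lists in colistin + 7-HC against 7-HC gave 10 of 10 acute-phase targets higher (median 5.24), 7 of 10 C/EBP alpha targets lower (-1.31), 12 of 18 HNF4A targets lower and 2 higher (-0.95), 8 of 11 FOXA targets lower (-1.08) and 5 of 6 HNF6 targets lower (-2.52). Of all genes tested, 14.5% were higher and 16.6% lower in this comparison, with a median of -0.01. In both colistin + 7-HC against colistin and 7-HC against control, 0 genes of these lists passed in limma. Of the 41 different genes in the 5 target lists, 8 had an unadjusted p under 0.05 for colistin + 7-HC against colistin (5 of them higher), where 12.4% of all genes did, and 5 for 7-HC against control (1 higher), where 9.59% of all genes did. The medians for colistin + 7-HC against colistin were -0.27 for the acute-phase targets, 0.41 for the C/EBP alpha targets, 0.05 for the HNF4A targets, -0.02 for the FOXA targets and -0.30 for the HNF6 targets, against 0.02 over all genes.

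For each factor the tested genes with the most similar pattern were found by Pearson's r of log2 values over the 12 libraries, which share the differences between groups. Cebpd was closest to Pycr1 (r = 0.96), a proline synthesis gene, Myd88 (0.96), the adaptor of interleukin-1 and Toll-like receptors, and Slc13a5 (0.95), a citrate transporter. Cebpa was closest to Anapc7 (0.96), Rgs16 (0.93) and Prpf19 (0.92), and Foxa1 to Map2k1 (0.94), Fam131c (0.94) and Pde4a (0.93). Cebpb, whose libraries spread most in the groups given colistin, was closest to Slc25a25 (0.95), Tat (0.91), the tyrosine aminotransferase gene, and Angptl4 (0.90). Prox1 was closest to Glce (0.95), Cpd (0.93) and Tjp1 (0.89), and Onecut1 to Fstl1 (0.88), D3Ertd751e (0.87) and Nudt1 (0.86). Hnf4a was closest to Mcph1 (0.89), Gemin4 (0.85) and Fubp3 (0.83), Foxa3 to BC037034 (0.89), Mtf2 (0.87) and Gadd45g (0.86), and Foxa2 to 4930430F08Rik (0.82), Rasl11b (0.81) and Ubac2 (0.81).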

How the data were processed

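RNA of 12 libraries was sequenced on a BGISEQ-500. The authors filtered reads with SOAPnuke, and the submitters' processing notes name HISAT2 2.0.4, Bowtie2 2.2.5, RSEM 1.2.12 and DESeq2 1.4.5. The deposited table gives 1 value per gene and library without naming its unit. The values are not whole and their sums differ between libraries, so they were taken as FPKM computed by the authors with RSEM, and were not scaled further. Read depth is unknown, so no counting interval was computed. Of 22899 genes, 5161 were blank in all libraries and 17738 had values.

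Groups were compared on log2 values of FPKM + 0.5 by limma (version 3.58.1, R 4.3.3, prior variance with a trend on the mean), over the 10764 genes that reached 1 FPKM in 3 or more libraries, and p-values were adjusted by Benjamini and Hochberg within each of 6 comparisons. The design named this test for normalised values and a count test for a table of counts, which this is not. The labels number the mice of each group and give nothing else that ties mice of different groups, so libraries were treated as independent. Each p-value sets a difference between groups against the spread between mice within groups. In the main fit that spread was pooled over the 4 groups and drawn towards the prior variance.

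The members and all 9 gene lists and 10 marker lists were chosen with earlier results of these data known. Named genes are all 9 members, up to 5 genes of a list with the greatest called change for colistin against control, and the 3 genes of most similar pattern for each member. Any other gene was named with its values in view. Results of 2 list genes are not reported here. Alternatives were 3 changes of filter or threshold, pseudocounts of 0.1 and 1, a fit restricted to the pair of groups, scaling by median ratios, replicate number as a block, and each library left out. The fit was first tested on simulated data. Hnf4aos, Gm25881, Gm33562, Gm38678 and Prox1os, which overlap members, were not analysed here. Python 3.11.15 with matplotlib 3.10.9 drew the figures.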

Additional observations from a re-analysis of the deposited data

How the results depend on the processing

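Of 54 log2 fold changes of single factors (9 factors in 6 comparisons), 18 changed sign in at least 1 setting, and none of these was among the 8 that passed the test. Cebpd passed in 13 of 14 settings for colistin against control, colistin + 7-HC against control and colistin + 7-HC against 7-HC. The exception was the study's thresholds applied to limma, a fold change of 2 or more with an adjusted p of 0.001 or less. Under these, 0 members passed in each of these 3 comparisons. For colistin + 7-HC against 7-HC, where 2 members passed, 1 passed without a filter, 1 with scaling by median ratios, 1 with a replicate block and 4 in a fit of only the 2 groups compared, and leaving out single libraries gave 1 to 3. For colistin + 7-HC against control, where 3 members passed, 2 passed without a filter, 2 with scaling by median ratios and 2 with a replicate block, the one lost being Cebpa each time. Leaving out single libraries gave 1 to 3 members there, with Cebpa lost for 5 of the 6 libraries, and for colistin against control 2 to 3. Same-numbered mice were treated as not paired. Of 18 such pairs of libraries, 2 had residuals that correlated above 0.1. With 3 mice per group this count cannot settle whether the mice were paired. Under the replicate block Cebpa missed the test for colistin + 7-HC against 7-HC (adjusted p = 0.0633) and against control (0.0591), and the block changed no other call of a member. The cause of these changes was not tested.

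Signs changed as follows. Scaling by median ratios gave Cebpa 0.016 for 7-HC against control, Foxa3 0.0044 for colistin + 7-HC against control and Cebpd -0.056 for the interaction, which was -0.0095 with a pseudocount of 1. The other changes of sign came from leaving out single libraries. For 7-HC against control the ranges were -0.20 to 0.080 (Cebpa), -0.085 to 0.16 (Cebpb), -0.10 to 0.27 (Foxa2), -0.10 to 0.032 (Hnf4a), -0.78 to 0.30 (Onecut1) and -0.22 to 0.50 (Prox1). For colistin against control they were -0.57 to 0.0091 (Cebpb), -0.061 to 0.19 (Foxa3) and -1.02 to 0.051 (Onecut1), and for colistin + 7-HC against colistin -0.53 to 0.034 (Cebpd). For colistin + 7-HC against control they were -0.26 to 0.11 (Foxa2), -0.20 to 0.073 (Foxa3), -0.00059 to 0.10 (Hnf4a) and -0.11 to 0.31 (Prox1), and for colistin + 7-HC against 7-HC -0.41 to 0.31 (Prox1). For the interaction they were -0.30 to 0.27 (Cebpd), -0.14 to 0.23 (Foxa2) and -0.69 to 0.035 (Prox1). The log2 ratio of Cebpb to Cebpa ranged from -0.17 to 0.30 for 7-HC against control, -0.55 to 0.0066 for colistin + 7-HC against 7-HC and -0.50 to 0.055 for colistin + 7-HC against control.

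Over all genes, 3515 passed for colistin against control, 3349 for colistin + 7-HC against 7-HC and 2812 for colistin + 7-HC against control. The study's thresholds applied to limma gave 633, 494 and 374. At an adjusted p under 0.05, the count for colistin + 7-HC against control was 1772 without colistin + 7-HC replicate 2. For colistin + 7-HC against colistin 1 gene passed, 470 without colistin replicate 2 and 0 to 3 in the other settings. For 7-HC against control 18 passed (0 to 18 in settings with all libraries, 4 to 62 with a library left out, the highest without control replicate 3). For the interaction 32 passed (0 to 36 with all libraries, 0 to 134 with one left out, the highest without colistin replicate 2), of which 17 were higher and 15 lower, against 10 and 14 with scaling by median ratios.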
